A study of Paraphaeosphaeria sporulosa with 23 samples.

Results

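Control cultures of the filamentous fungus Paraphaeosphaeria sporulosa, strain AP3s5-JAC2a, were compared between day 6 and day 0 of the experiment. The members were the libraries whose titles name controls of those days: 3 at day 0 and 5 at day 6, which is 8 of the 23 libraries of the series. The other 15 libraries are 6 controls of day 1 and cultures given 0.1 mM sodium selenite at day 1 or day 6. No library of the comparison received selenite. Both groups share a history, since biomass of a 14-day preculture was homogenised in a blender and regrown in standing flasks of a yeast extract medium (AY) in the dark for 18 days before day 0. Day 6 therefore means 6 further days of incubation, and the comparison asks how the transcripts of an already grown mycelium changed over that time without selenite. The RNA was polyadenylated RNA from whole organisms, and per the labels all samples belong to 1 batch. Whether the replicates of a day were separate flasks is not stated, so a p-value here reflects the spread among the libraries sequenced, some of which may be technical.

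Filamentous fungi grow as hyphae that extend at their tips and leave older compartments behind. In a standing liquid culture the medium is not renewed, and as nutrients are used up a mycelium passes from growth into a stationary phase, in which fungi are known to shift towards nutrient recycling, secreted enzymes and secondary metabolites. Genes of a secondary metabolite pathway in filamentous fungi often lie side by side and are transcribed together, so neighbouring genes were looked at as well as single ones. The genes carry locus tags or, for 320 models added by the authors, names beginning with STRG. Neither the deposit nor the RefSeq annotation used here pairs these with product names. UniProt identifiers are deposited for some genes and were not used to name them. Genes are therefore described by position, structure and level and are given no role.

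The 8 libraries held 23282564 to 31697825 reads in genes. Levels are given as scaled CPM, that is CPM (reads scaled to a common library total) divided by a composition factor for each library (TMM), and 13676 of 15164 genes had enough reads to be tested. Over the log2 levels of these genes, the first principal component of the 8 libraries held 51.8% of the variance and placed day 0 at −77.4 to −21.8 and day 6 at 12.0 to 66.1. The libraries of a day were not alike. Day 0 replicate 1 lay nearest to day 6, at −21.8 against −73.0 and −77.4 for replicates 2 and 3. Its correlation across genes, which are not independent replicates, was 0.964 and 0.960 with the other day 0 libraries and 0.963 with day 6 replicate 2. At day 6, replicates 1 and 3 stood apart from the other 3, at 66.1 and 60.1 against values up to 21, and correlated with each other at 0.981. The main results that rest on these libraries are given below with and without them.

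**Figure D1:**
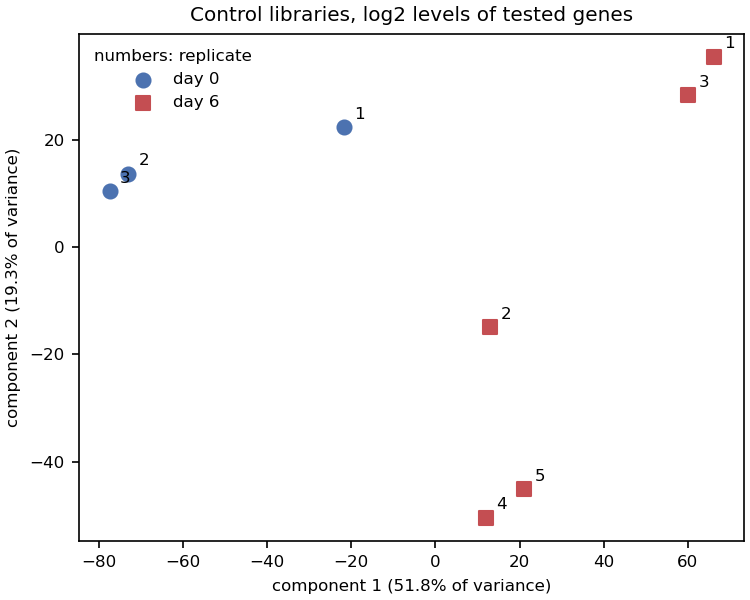
Principal components of the 8 control libraries from the log2 levels of 13676 tested genes. Each point is a library with its replicate number, circles are day 0 and squares day 6; day 0 replicate 1 (−21.8) lies between the other day 0 libraries and day 6 on component 1, and day 6 replicates 1 and 3 lie farthest from day 0.

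Over 6 days, falls that passed the test were most frequent among genes with many reads. Such falls were rarer among genes with few reads, where rises that passed outnumbered them but were not more frequent. Of the tested genes, 2890 (21.1%) passed limma's test after Benjamini-Hochberg adjustment (threshold 0.05), 1330 higher at day 6 (9.73%) and 1560 lower (11.4%). For 2229 of the 2890 (1057 higher, 1172 lower) the libraries of the days did not overlap, as for 25.2% of all tested genes. At least 2-fold changes were found for 989 genes higher (7.23%) and 838 lower (6.13%), at least 8-fold changes for 31 and 34. The median log2 change of all tested genes was 0.04.

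The risen genes had a median day 0 level of 8.71 scaled CPM and a median day 6 level of 26.3. The fallen genes had medians of 94.6 and 44.2, and all tested genes had 9.99 and 11.9. Among the 1414 genes with a mean level of 100 to 1000 scaled CPM over the 8 libraries, 504 fell (35.6%) and 146 rose (10.3%). Among the 3730 genes at 1 to 10 scaled CPM, 120 fell (3.22%) and 385 rose (10.3%). The share of rises past the threshold was thus the same in these bands. The median log2 change of all their tested genes was −0.36 at 100 to 1000 scaled CPM and 0.24 at 1 to 10. How readily a change is called at each level was not tested. Among the 5725 genes at 10 to 100 scaled CPM, 889 fell (15.5%) and 732 rose (12.8%). Among the 2736 genes below 1 scaled CPM, 27 fell (0.987%) and 62 rose (2.27%). Of the 71 genes at 1000 scaled CPM or more, 20 fell and 5 rose. The bands were counted with TMM factors only. Levels here are per gene and not per length; the median exonic lengths of risen and fallen genes were 1464.5 and 1473 bases.

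The share of all reads that came from the 1560 fallen genes was 32.8%, 50.3% and 51.2% in day 0 replicates 1, 2 and 3. In day 6 replicates 1 to 5 it was 15.6%, 23.9%, 16.8%, 20.8% and 18.2%. The 1330 risen genes held 6.76%, 3.62% and 3.45% at day 0 and 18.6%, 10.9%, 17.6%, 10.8% and 11.7% at day 6. Both sets were picked by this very contrast, and the shares are descriptive. In controls of day 1, which entered the error of the fit but not the contrast, the fallen genes held 24% to 33.5% of reads and the risen genes 5.92% to 10.1%.

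The split of directions depended on scaling. With TMM factors 46.0% of changed genes were higher, 50.2% with size factors from DESeq2 and 73.4% with library size alone (2217 higher, 803 lower), a scaling that moved the median of all genes by 0.29 on the log2 scale. Without day 0 replicate 2 or 3 the number of changed genes was 1245 or 1179, and without day 6 replicates 1 and 3 together it was 1486; 934 genes (408 higher, 526 lower) passed in the full fit and in each of the 8 fits that left out a single library.

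**Figure D2:**
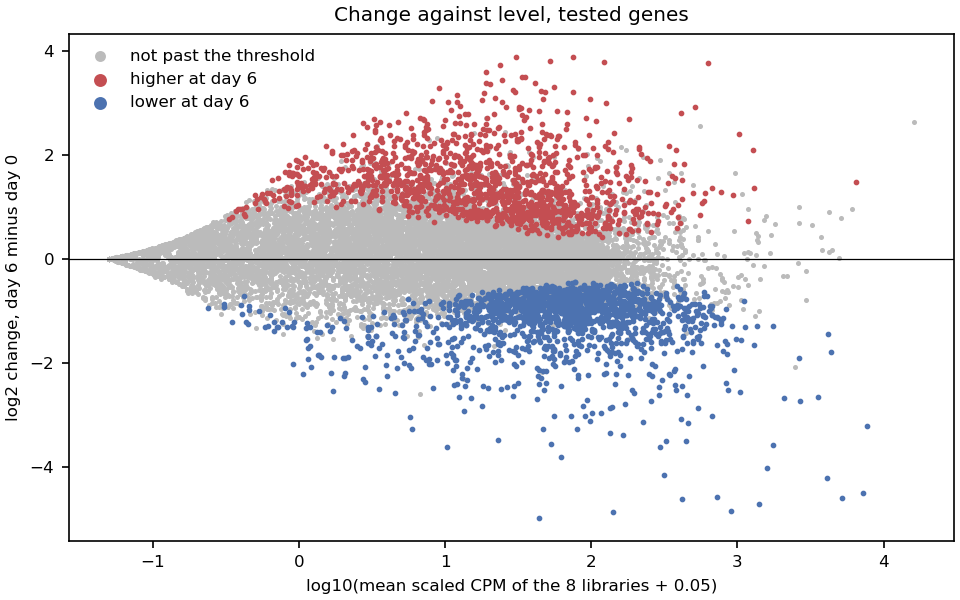
Log2 change from day 0 to day 6 (vertical axis) against the log10 mean level of the 8 libraries (horizontal axis) for each of 13676 tested genes. Red points (1330) were higher and blue points (1560) lower at day 6 at a limma adjusted p under 0.05; falls are most frequent between 100 and 1000 scaled CPM, where 35.6% of genes fell.

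The libraries that stood apart also ordered the genes. Day 6 replicates 1 and 3 both lay above the other 3 day 6 libraries for 723 of the risen genes (54.4%) and both below them for 864 of the fallen genes (55.4%), against 22.9% and 21.9% of all tested genes. Day 0 replicate 1 lay above the other day 0 libraries for 68.3% of risen genes and below them for 79.3% of fallen genes, against 39.4% and 35.2% of all tested genes. The risen and fallen genes were chosen by the values of these same libraries, so the shares are a description. What part the libraries that stood apart have in the changes between days was not tested beyond leaving them out.

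The steepest falls were in 6 genes that went from at least 136 scaled CPM in day 0 replicates 2 and 3 to 162 or fewer in every day 6 library, apart from CC84DRAFT_1167077, which kept up to 904. They were chosen as the changed genes with the largest log2 falls among those without overlap and with at least 10 scaled CPM at day 0. CC84DRAFT_1153079, with 4 exons on scaffold NW_017253369.1 (168643 to 170260, minus strand), had 12.0, 191 and 136 scaled CPM in day 0 replicates 1, 2 and 3. At day 6 it had 0.397, 2.14, 2.24, 2.44 and 2.08 in replicates 1 to 5. Replicate 1 was the lowest library on both days, and day 6 was below day 0 throughout. The log2 change was −4.99 ± 0.70 (SE; limma adjusted p = 5.56e-05), with means of 113 ± 91.9 (SD, n = 3) and 1.86 ± 0.83 (n = 5).

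CC84DRAFT_166891 and CC84DRAFT_1212428 are neighbours on the plus strand of NW_017253360.1, at 4811936 to 4812767 and 4810969 to 4811757, each of 1 exon, with 178 bases between them. CC84DRAFT_166891 had 23.8, 401 and 654 scaled CPM at day 0 and 1.59, 14.3, 14.1, 8.51 and 1.99 at day 6. CC84DRAFT_1212428 had 121, 2436 and 3013 at day 0 and 9.85, 64.7, 95.1, 67.6 and 23 at day 6. Both were lowest in replicate 1 of each day. They fell by 4.88 ± 0.76 and 4.59 ± 0.73 on the log2 scale (limma adjusted p = 0.000138 and 0.000174). The gene after CC84DRAFT_166891 overlaps it by 13 bases on the same strand and had a log2 change of −0.34 (limma adjusted p = 0.351).

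CC84DRAFT_238584, of 2 exons on the plus strand of NW_017253369.1 (1335909 to 1336733), had 173, 3462 and 3287 scaled CPM at day 0 and 9.73, 91.6, 162, 77.6 and 12.7 at day 6. CC84DRAFT_1062960, with 1 exon on NW_017253368.1 (1516148 to 1516807, minus strand), had 78.4, 1610 and 1516 at day 0 and 6.75, 39.7, 30.6, 37.2 and 20.4 at day 6. In both, day 0 replicate 1 was far below replicates 2 and 3, and the lowest libraries of day 6 were replicates 1 and 5. CC84DRAFT_238584 fell by 4.85 ± 0.78 on the log2 scale (limma adjusted p = 0.000187). CC84DRAFT_1062960 fell by 4.62 ± 0.66 (limma adjusted p = 5.87e-05).

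CC84DRAFT_1167077 was named by 3 parts of the rule, as a steep fall, as a large fall in level and as a gene with very high CPM at day 0. It has 2 exons on NW_017253368.1 (59580 to 60110, minus strand) and had 1363, 17326 and 20519 scaled CPM at day 0 and 47.8, 681, 904, 688 and 168 at day 6. Its share of reads fell from a mean of 1.39% to 0.0728%, and its log2 change was −4.61 ± 0.77 (limma adjusted p = 0.000271). In all 6 genes replicate 1 was the lowest library of day 6 and replicate 5 the next. The controls of day 1 (n = 6) had means of 20.9, 37.1, 546, 324, 3107 and 346 scaled CPM in CC84DRAFT_1153079, CC84DRAFT_166891, CC84DRAFT_238584, CC84DRAFT_1062960, CC84DRAFT_1167077 and CC84DRAFT_1212428, in each between the means of day 0 and day 6.

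Without day 0 replicate 1 the log2 changes of these 6 genes were −6.34 to −5.87, and leaving out any other single library kept all 6 past the threshold, at −5.32 to −3.71. The size of these falls thus rests on which day 0 libraries are counted. Their direction could not turn in these fits, because the genes were chosen without overlap between the days.

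**Figure D3:**
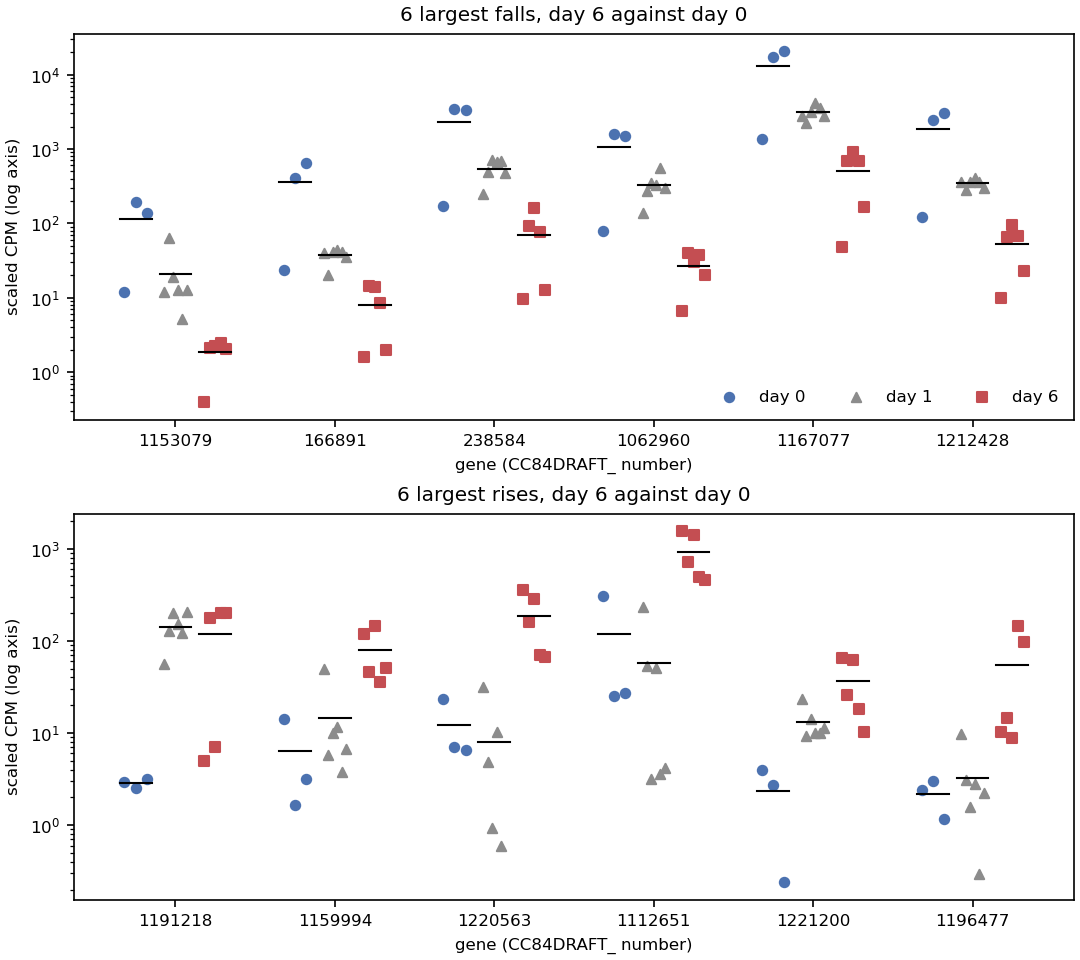
Scaled CPM on a log axis of the 6 steepest falls (top) and the 6 steepest rises (bottom) by the naming rule, with each control library as a point and group means as lines. Day 0 replicate 1 is the lowest day 0 point in all 6 falls, and the day 6 points of CC84DRAFT_1191218 form separate sets (4.91 and 6.99 against 175 to 203); a day 1 library with no read of CC84DRAFT_1220563 is not drawn.

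The steepest rises were in 6 genes with low or moderate levels at day 0, and the day 6 libraries of these genes followed opposite orders. In 4 of them replicates 1 and 3 were the highest of day 6. CC84DRAFT_1159994, of 3 exons on the minus strand of NW_017253360.1 (4251969 to 4252990), had 14.1, 1.66 and 3.20 scaled CPM at day 0 and 118, 45.6, 144, 35.4 and 51.2 at day 6. Its log2 change was 3.80 ± 0.62 (limma adjusted p = 0.000222). Its day 0 replicate 1 was the nearest to day 6, and the change was 4.59 without that library and 3.20 without day 6 replicates 1 and 3.

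CC84DRAFT_1220563, with 1 exon on NW_017253368.1 (943104 to 943577, minus strand), had 23.4, 7.07 and 6.57 at day 0 and 359, 161, 283, 70.0 and 66.3 at day 6. CC84DRAFT_1112651, of 6 exons on the minus strand of NW_017253361.1 (3237199 to 3239599), had 305, 25.1 and 27 at day 0 and 1545, 726, 1417, 494 and 452 at day 6. Day 0 replicate 1 was again the highest of its day in both. CC84DRAFT_1220563 rose by 3.79 ± 0.93 (limma adjusted p = 0.00543) and CC84DRAFT_1112651 by 3.76 ± 0.97 (limma adjusted p = 0.00802). Without day 6 replicates 1 and 3 together their limma adjusted p-values were 0.0502 and 0.0603, with log2 changes of 3.10 and 3.22, and CC84DRAFT_1112651 also missed the threshold without day 0 replicate 2 or 3 (3.15 and 3.26, limma adjusted p = 0.0747 and 0.0693) and in edgeR (2.96, adjusted p = 0.0630).

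CC84DRAFT_1221200, of 5 exons on the minus strand of NW_017253369.1 (1044044 to 1046017), had 4.0, 2.74 and 0.241 at day 0 and 64.8, 25.8, 62.1, 18.1 and 10.3 at day 6. It rose by 3.73 ± 0.60 (limma adjusted p = 0.000183), and by 3.0 without day 6 replicates 1 and 3.

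The other 2 genes were lowest where the first 4 were highest. CC84DRAFT_1191218, of 3 exons on the plus strand of NW_017253374.1 (246500 to 247631), had 2.92, 2.52 and 3.16 at day 0 and 4.91, 175, 6.99, 202 and 203 at day 6. Day 6 replicates 1 and 3 were just above day 0, and replicates 2, 4 and 5 were at the level of the day 1 controls (55.7 to 204, n = 6). Its log2 change was 3.88 ± 0.84 (limma adjusted p = 0.00233), and 5.87 without replicates 1 and 3. It missed the threshold with limma-voom (4.06, adjusted p = 0.102) and with only the 8 libraries in the limma fit (3.94, adjusted p = 0.0985).

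CC84DRAFT_1196477, of 2 exons on the minus strand of NW_017253364.1 (2881502 to 2882869), had 2.43, 3.0 and 1.17 at day 0 and 10.3, 14.5, 8.75, 145 and 96.2 at day 6. Replicates 4 and 5 were far above the other 3 of day 6, which in turn were above day 0. It rose by 3.50 ± 0.78 (limma adjusted p = 0.00285), with 3.28 ± 3.28 scaled CPM in day 1 controls (SD, n = 6), and it missed the threshold with limma-voom (3.75, adjusted p = 0.0608) and with only the 8 libraries in the limma fit (3.59, adjusted p = 0.0515). Day 1 means of the other 4 genes were 14.5 in CC84DRAFT_1159994, 8.06 in CC84DRAFT_1220563, 57.8 in CC84DRAFT_1112651 and 13.1 in CC84DRAFT_1221200.

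The genes that lost most reads included the most abundant transcripts of day 0. The 3 genes with the highest mean CPM at day 0 were CC84DRAFT_1222330, CC84DRAFT_1184315 and CC84DRAFT_1167077, with 1.95%, 1.86% and 1.39% of all reads, and all 3 fell. Per kilobase of exon, the scale on which genes can be compared, their day 0 means were 79296, 16275 and 27228 scaled CPM, and their day 6 means were 3363, 1904 and 1037. CC84DRAFT_1222330 is a short gene with 228 exonic bases in 2 exons on the plus strand of NW_017253372.1 (363767 to 364047). It had 3159, 24381 and 26698 scaled CPM at day 0 and 87.9, 1006, 1138, 1124 and 477 at day 6, a log2 change of −4.51 ± 0.67 (limma adjusted p = 8.44e-05). Replicate 1 was again the lowest of each day, and without day 0 replicate 1 the change was −5.51.

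CC84DRAFT_1184315, of 3 exons on the plus strand of NW_017253361.1 (2704319 to 2705482), had 3186, 22217 and 26450 at day 0 and 217, 4336, 1054, 3250 and 1250 at day 6. The groups overlapped, because day 0 replicate 1 lay below day 6 replicates 2 and 4. Its log2 change was −3.22 ± 0.73 (limma adjusted p = 0.00314), and with only the 8 libraries in the limma fit the call was lost (−3.20, adjusted p = 0.0982). Without day 0 replicate 1 the change was −4.20, and without day 6 replicates 1 and 3 it was −2.21. In the controls of day 1 it had 27350 ± 4553 scaled CPM (SD, n = 6).

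Under the same conditions, the other large falls in mean level were CC84DRAFT_1162161 and CC84DRAFT_1077854. CC84DRAFT_1162161, of 3 exons on the plus strand of NW_017253362.1 (974732 to 976389), had 1167, 14340 and 14805 at day 0 and 69.6, 653, 203, 817 and 563 at day 6. CC84DRAFT_1077854, of 6 exons on the plus strand of NW_017253360.1 (2843749 to 2845902), had 3624, 10409 and 8418 at day 0 and 596, 1881, 787, 1267 and 1301 at day 6. In both, replicate 1 was the lowest of each day and no library of day 6 reached day 0. They fell by 4.22 ± 0.69 and 2.66 ± 0.42 (limma adjusted p = 0.000214 and 0.000173). Without day 0 replicate 1 the changes were −5.44 and −3.12, and without day 6 replicates 1 and 3 they were −3.20 and −2.19. In the controls of day 1 they had 12258 ± 2320 and 7740 ± 2146 scaled CPM (SD, n = 6), beside 10104 ± 7743 and 7484 ± 3488 at day 0 (n = 3) and 461 ± 314 and 1166 ± 502 at day 6 (n = 5).

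Among genes that passed the test and whose groups did not overlap, the 4 largest rises in mean level were in CC84DRAFT_1223420, CC84DRAFT_8385, STRG.7231 and CC84DRAFT_1203856. CC84DRAFT_1223420, of 2 exons on the minus strand of NW_017253375.1 (679473 to 680181), had 3053, 2704 and 2783 at day 0 and 14609, 6342, 10972, 5840 and 5212 at day 6. Its day 0 libraries were close together and day 6 replicates 1 and 3 were the highest. It rose by 1.48 ± 0.43 (limma adjusted p = 0.0164), but missed the threshold without day 6 replicates 1 and 3 (1.06, limma adjusted p = 0.0624), without day 0 replicate 2 (1.44, 0.0743) and without day 0 replicate 3 (1.52, 0.0554). It also missed it in limma fits of only the 8 libraries (adjusted p = 0.183) or the 14 controls (0.0590).

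STRG.7231, a model of 2 exons on the plus strand of NW_017253368.1 (674529 to 676320), had 265, 220 and 273 at day 0 and 2388, 1167, 2227, 936 and 735 at day 6. Replicates 1 and 3 were again the highest of day 6. It rose by 2.41 ± 0.34 (limma adjusted p = 5.67e-05) and kept its call in every alternative tried, at 1.91 to 2.7. Controls of day 1 had 2543 ± 639 scaled CPM of it (SD, n = 6).

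CC84DRAFT_1203856, of 3 exons on the plus strand of NW_017253362.1 (1815602 to 1817715), had 685, 537 and 542 at day 0 and 856, 1742, 761, 2977 and 2278 at day 6, with replicates 1 and 3 the lowest of day 6. It rose by 1.36 ± 0.36 (limma adjusted p = 0.00974), and by 1.30 without day 0 replicate 2 (limma adjusted p = 0.0549) and 1.38 with only the 8 libraries (limma adjusted p = 0.0971). Without day 6 replicates 1 and 3 the rise was 1.99. CC84DRAFT_8385, of 13 exons on the minus strand of NW_017253360.1 (524898 to 527882), had 568, 352 and 350 at day 0 and 2183, 1302, 2233, 1548 and 1764 at day 6. The groups lie far apart and each is narrow. Its log2 change of 2.10 ± 0.74 was near the threshold (limma adjusted p = 0.0438) and missed it in edgeR, DESeq2 and limma-voom and in every limma fit that left out a single library, other than the one without day 6 replicate 2. With only the 8 libraries in the limma fit it passed (2.12, adjusted p = 0.0104), and with the 14 controls it did not (2.11, 0.132). The error of the fit is shared by all 5 groups, and in the controls of day 1 its level ran from 27.6 to 1233 scaled CPM.

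At day 6 the genes with the highest mean CPM were CC84DRAFT_1180339, CC84DRAFT_1223420 and CC84DRAFT_1226245, with means of 3.41%, 1.30% and 1.09% of reads. Per kilobase of exon their day 6 means were 42547, 13083 and 3460 scaled CPM. CC84DRAFT_1180339, of 1 exon on the minus strand of NW_017253371.1 (86589 to 87170), had 1097, 1685 and 1685 at day 0 and 584, 25844, 1762, 52968 and 42654 at day 6. Day 6 replicate 1 was below every day 0 library and replicate 3 just above them, while replicates 2, 4 and 5 were more than 10 times as high. Its log2 change of 2.63 ± 1.19 did not pass (limma adjusted p = 0.121). It passed without day 6 replicate 1 (3.62, limma adjusted p = 0.0234), without replicates 1 and 3 (4.76, limma adjusted p = 0.000429) and on all libraries in edgeR (4.06, adjusted p = 0.00542), DESeq2 and limma-voom.

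CC84DRAFT_1226245, of 3 exons on the minus strand of NW_017253360.1 (2996894 to 2999243), had 1824, 3760 and 4428 at day 0 and 2209, 8008, 2712, 12706 and 13151 at day 6. The groups overlapped through day 6 replicates 1 and 3. The log2 change was 0.95 ± 0.75 (limma adjusted p = 0.403); in DESeq2 it was 1.26 with an adjusted p of 0.0155. In the controls of day 1 these genes had 69489 ± 15547 and 25341 ± 4609 scaled CPM (SD, n = 6), beside 24762 ± 23614 and 7757 ± 5241 at day 6 (n = 5).

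Groups of genes were described next, by clusters in the authors' deposited time-course table, by gene structure and by origin of the gene model. The study chose the clusters on these same libraries, so they are no independent evidence of a direction. Cluster 5 was the most one-sided: 543 of its 827 genes fell (65.7%, against 11.4% of all tested genes) and 0 rose, with a median log2 change of −0.88. With library size alone 312 fell and the median was −0.59, while the median of all genes moved by 0.29. The count of risen genes was 0 also at an unadjusted limma p under 0.05, with edgeR, DESeq2 and limma-voom, and with either other scaling. It holds 5 of the 6 steepest falls, all but CC84DRAFT_166891, and the 3 genes with the highest CPM at day 0. Its share of reads was 19.0%, 31.3% and 33% in day 0 replicates 1, 2 and 3 and 10.3%, 14.9%, 11.3%, 12.6% and 10.5% in day 6 replicates 1 to 5. In the controls of day 1 it was 12.4% to 15.2%.

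Cluster 3 leaned the other way, with 257 of 1042 genes higher (24.7%, against 9.73% of all), 11 lower and a median of 0.29. It held 13.5%, 7.99% and 7.64% of reads at day 0 and 20.1%, 14.7%, 19.4%, 12.9% and 13.1% at day 6. Day 0 replicate 1 and day 6 replicates 1 and 3 were the highest of their days. CC84DRAFT_1159994, CC84DRAFT_1112651, STRG.7231 and CC84DRAFT_1203856 belong to it. Without day 0 replicate 2 or 3, or without day 6 replicates 1 and 3, the falls in cluster 5 numbered 298, 245 and 297, and the rises in cluster 3 numbered 125, 133 and 139.

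In cluster 4, 148 of 599 genes fell (24.7%, against 11.4% of all) and 41 rose (6.84%, against 9.73%), with a median of −0.36. With library size alone there were 81 falls and 69 rises, with a median of −0.06. Cluster 1 had 88 falls (21.8%) and 50 rises (12.4%) among 403 genes, a majority that turned with library size alone (43 and 74). Cluster 2, which holds CC84DRAFT_1191218 and CC84DRAFT_1180339, had 258 rises (14.8%) and 214 falls (12.3%) among 1740 genes. Its median was 0.07, close to the 0.04 of all genes. Of the 9065 tested genes outside the time-course table, 724 rose (7.99%) and 556 fell (6.13%).

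Of the 278 tested STRG models 30 rose (10.8%, against 9.73% of all tested genes) and 9 fell (3.24%, against 11.4%). Their share of rises was thus near that of all genes, and falls were scarcer. Falls were also scarce among all genes at 1 to 10 scaled CPM (3.22%), and lists were not compared at matched levels. The median log2 change of STRG models was 0.29, and more rose than fell under each of the 3 scalings. Of the 3339 tested genes with 1 exon 290 rose (8.69%) and 234 fell (7.01%), with a median of 0.09. Both shares were below those of all tested genes. Among fallen genes 15.0% had 1 exon, against 24.4% of all tested genes and 21.8% of risen genes. Of the 66 tested transfer RNA genes 2 rose and 0 fell in limma (8 and 0 at an unadjusted p under 0.05), and 2 and 0 in edgeR, 4 and 0 in DESeq2 and 3 and 1 in limma-voom; these RNAs are not polyadenylated as a rule, and all 110 together held 0.00359% to 0.0120% of reads in the 8 libraries.

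**Figure D4:**
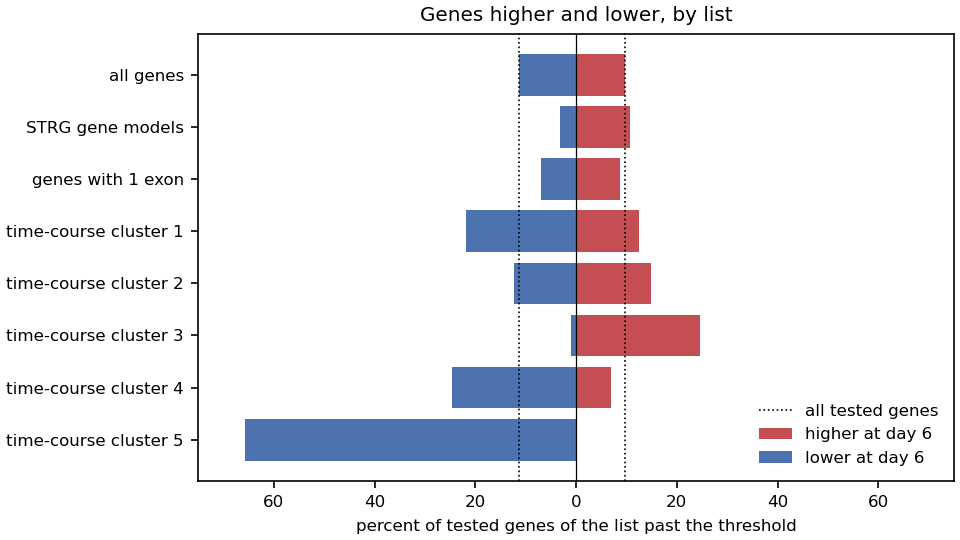
Percent of the tested genes of each list that were lower (left, blue) or higher (right, red) at day 6 at a limma adjusted p under 0.05. Dotted lines mark all tested genes (11.4% lower, 9.73% higher); cluster 5 stands at 65.7% lower with no gene higher, and cluster 3 at 24.7% higher.

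Some changed genes lay side by side. A run was taken as at least 3 genes that follow each other on a scaffold, all changed at least 2-fold in the same direction. There were 19 rising runs with 62 genes, of which 15 had 3 genes, 3 had 4 and 1 had 5. There were 16 falling runs with 50 genes, of which 14 had 3 genes and 2 had 4. With 7.23% of genes past the threshold and 2-fold higher and 6.13% 2-fold lower, no statement is made on how many runs would arise without any order. The numbers moved with the libraries: without day 0 replicate 2 or 3 there were 2 or 6 rising and 6 or 5 falling runs, and without day 0 replicate 1 there were 26 and 39. Without day 6 replicates 1 and 3 there were 9 and 6; without either of these alone 12 were rising; and without day 6 replicate 2 there were 27 falling runs.

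The longest rising run lies on NW_017253368.1 from 626585 to 634920 and holds CC84DRAFT_1220455, CC84DRAFT_982553, CC84DRAFT_982552, CC84DRAFT_1252200 and CC84DRAFT_1220459, with log2 changes of 2.64, 1.43, 2.68, 2.21 and 1.02. The middle gene is on the plus strand and the other 4 on the minus strand. CC84DRAFT_1252200, with the highest day 6 mean of the 5 (64.4 ± 33.7 scaled CPM, SD, n = 5), had 13, 13 and 10.7 at day 0 and 82.9, 37.2, 114, 36.2 and 51.4 at day 6. CC84DRAFT_1220455, with the lowest, had 1.66, 0.127 and 0.206 at day 0 and 15.7, 3.11, 10.3, 2.83 and 3.67 at day 6.

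In all 5 genes the day 6 libraries lay above those of day 0. Replicates 1 and 3 were the highest of day 6 in 4 of them, and not in CC84DRAFT_1220459 (58.1, 45.2, 70.9, 61.3 and 67.6, after 44.6, 21 and 26.7 at day 0). The run is only partly stable: without day 6 replicates 1 and 3 only CC84DRAFT_1220459 passed (0.99, limma adjusted p = 0.0207), and CC84DRAFT_982553 (limma adjusted p = 0.0430) missed the threshold in edgeR, DESeq2 and limma-voom and without any of replicates 1 to 3 of either day. In edgeR CC84DRAFT_1220455 and CC84DRAFT_982552 missed it too (adjusted p = 0.149 and 0.0950), and in DESeq2 CC84DRAFT_1220455 did (adjusted p = 0.0583). Without day 0 replicate 2, CC84DRAFT_1220455 and CC84DRAFT_1220459 missed it as well (limma adjusted p = 0.0645 and 0.0688). Without day 0 replicate 3, CC84DRAFT_1220455 and CC84DRAFT_982552 did (limma adjusted p = 0.0547 and 0.0536). In limma's test against a 1.5-fold change all 5 genes missed the threshold (adjusted p = 0.0800 to 0.440).

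A run of 4 genes on NW_017253362.1 (1995940 to 2003530) was chosen after its values were seen, because its genes kept their calls. It holds CC84DRAFT_1239841, CC84DRAFT_1203915, CC84DRAFT_1162499 and CC84DRAFT_1194726, with log2 changes of 3.31 ± 0.55, 3.21 ± 0.56, 1.58 ± 0.34 and 2.38 ± 0.35 (limma adjusted p = 0.00026, 0.000393, 0.00236 and 8.4e-05). CC84DRAFT_1239841 had 11.2, 7.36 and 5.02 scaled CPM at day 0 and 83.8, 77.7, 43.3, 81.3 and 131 at day 6. CC84DRAFT_1194726 had 21.5, 13.3 and 8.50 at day 0 and 69.4, 70.6, 47.4, 75.2 and 112 at day 6.

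Here replicate 5 was the highest of day 6 and replicate 3 the lowest in CC84DRAFT_1239841 and CC84DRAFT_1194726, so the order was not that of the longest run. All 4 genes passed without each single library, without day 6 replicates 1 and 3 and in edgeR, DESeq2 and limma-voom. The run was chosen for keeping its calls, so these passes are a description only. Day 1 means were 275 ± 105, 68.8 ± 29.3, 214 ± 79.3 and 215 ± 80.2 scaled CPM (SD, n = 6), beside day 6 means of 83.4 ± 31.3, 70.1 ± 26.4, 249 ± 48.0 and 74.9 ± 23.3 (n = 5).

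The falling run chosen by the rule lies on NW_017253367.1 from 2091362 to 2103160 and holds CC84DRAFT_1220198, CC84DRAFT_1189230, CC84DRAFT_970228 and CC84DRAFT_1189232, all on the plus strand. CC84DRAFT_1220198 had 115, 84.9 and 110 scaled CPM at day 0 and 4.22, 18.7, 3.28, 15.6 and 23.4 at day 6, a log2 change of −3.28 ± 0.45 (limma adjusted p = 3.75e-05). CC84DRAFT_970228 had 168, 127 and 131 at day 0 and 53.4, 62.3, 61.2, 49.7 and 37 at day 6, a change of −1.43 ± 0.26 (limma adjusted p = 0.000634). In both, day 0 replicate 1 was the highest of its day.

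CC84DRAFT_1189230 had 2.95, 4.14 and 3.06 at day 0 and 0.199, 0.224, 0.267, 1.86 and 0.850 at day 6, and its log2 change was −1.88 ± 0.43 (limma adjusted p = 0.0034). CC84DRAFT_1189232, with 12.6, 17.9 and 17.6 at day 0 and 7.07, 9.18, 8.37, 5.96 and 5.12 at day 6, changed by −1.12 ± 0.35 (limma adjusted p = 0.0225). In both, the lowest library of day 0 was replicate 1. CC84DRAFT_1189232 was the least stable of the 4, and missed the threshold without day 0 replicate 2 or 3, without day 6 replicates 1 and 3 and with library size alone.

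A falling run of 3 genes lies just before it, parted by 1 gene, so that 7 of 8 genes fell over 20357 bases (2082804 to 2103160). This was the only such pair of runs. The genes of the first run, CC84DRAFT_1220195, CC84DRAFT_1167030 and CC84DRAFT_1220197, had log2 changes of −2.68 ± 0.37, −3.28 ± 0.49 and −3.50 ± 0.58 (limma adjusted p = 4.2e-05, 8.7e-05 and 0.000271). CC84DRAFT_1220197 had 35.2, 54.8 and 63.0 at day 0 and 0.894, 5.25, 0.987, 13.3 and 10.0 at day 6. As in CC84DRAFT_1220198, day 6 replicates 1 and 3 were the lowest. The gene between the runs, CC84DRAFT_969846, had at most 0.989 scaled CPM in any of the 8 libraries and did not pass (−0.65 ± 0.42, limma adjusted p = 0.295). The fallen genes of the stretch did not all move together. In controls of day 1, CC84DRAFT_1189230 had 15.8 ± 5.93 scaled CPM (SD, n = 6), above its means of day 0 (3.38) and day 6 (0.679). Each other fallen gene of the stretch had a day 1 mean between its means of day 0 and day 6.

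**Figure D5:**
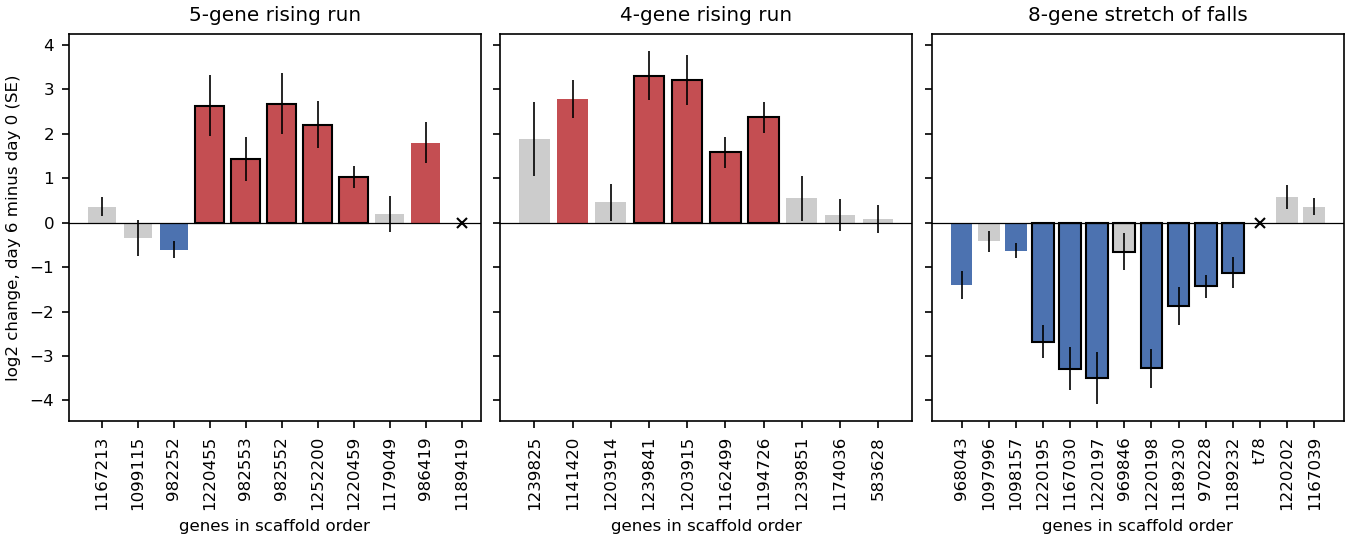
Log2 change from day 0 to day 6 of genes in scaffold order around 3 runs of neighbours, with standard errors as lines. Outlined bars belong to the run, red and blue bars passed a limma adjusted p of 0.05, grey bars did not and crosses were not tested; numbers follow CC84DRAFT_, and CC84DRAFT_969846 is the grey bar (−0.65) inside the falling stretch.

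Measures of the whole library were compared in exact two-sided permutation tests over the 56 splits of 3 against 5 libraries, where the smallest possible p is 0.0179. None of 7 measures passed after adjustment and 2 had an unadjusted p under 0.05; a single measure at the smallest p would have an adjusted p of 0.125, so this says little about whether the measures differ. Genes at 1 CPM or more numbered 11172, 10575 and 10505 at day 0 and 11300, 11210, 11439, 11107 and 11231 at day 6 (exact permutation p = 0.0357, adjusted 0.125). Day 0 replicate 1 lay among the day 6 libraries. Genes with 1 exon held 11.2%, 10.5% and 10.5% of reads at day 0 and 12.4%, 16.3%, 12.5%, 20.7% and 19.9% at day 6 (exact permutation p = 0.0357, adjusted 0.125).

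The day 6 libraries were all above day 0 in this share. Least so were replicates 1 and 3, the libraries with few reads of the 1-exon gene CC84DRAFT_1180339. That gene alone held a mean of 0.174% of reads at day 0 and 3.41% at day 6. Its shares in day 6 replicates 1 to 5 were 0.0941%, 3.63%, 0.284%, 7.04% and 6.01%. Its own change did not pass (limma adjusted p = 0.121). STRG models held 0.575% ± 0.050 (SD, n = 3) and 1.05% ± 0.33 (n = 5) of reads (exact permutation p = 0.0714, adjusted 0.167). The share was 1.43% in day 6 replicate 1, 1.40% in replicate 3 and 0.764% to 0.883% in the rest of that day. The difference between days was 0.478 percentage points with replicates 1 and 3 and 0.237 without them. For genes with 1 exon it was 5.64 and 8.23, with the reads of CC84DRAFT_1180339 included. Genes without a read numbered 2703 ± 36.2 and 2348 ± 324 (exact permutation p = 0.125, adjusted 0.219). The 10 genes with most reads held 11.3% ± 4.54 and 11.6% ± 3.63, and the 100 genes with most reads 30.4% ± 5.86 and 27.8% ± 3.23 (exact permutation p = 0.929 and 0.464, adjusted 0.929 and 0.583). The read-weighted mean exonic length was 1707 ± 122 and 1751 ± 53.5 bases (exact permutation p = 0.50, adjusted 0.583).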

How the data were processed

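RNA from control cultures was sequenced from a stranded kit for messenger RNA. The submitters' processing notes list Trimmomatic 0.39, STAR 2.7.1a, Subread 2.0.6 with featureCounts, edgeR 3.36.0 and R 4.1.0. The genome build and the treatment of reads that map to several places are not given in the sources used here. Per the file headers, featureCounts was run with strand option 2, so antisense reads were kept apart. The authors' deposited CPM table scales each gene's reads to the total over all genes of its library. The values came out as whole reads: 100% of 348772 values lay within 0.001 reads of a whole number, and the 13 genes with numbers in the deposited count table matched in 299 of 299 cells. Another deposited table of the authors, a time course of 4611 genes, gives an R-squared score of at least 0.70 and cluster numbers; only the clusters were used. Positions, counted from 1, are those of the deposited count table; 14839 of 14844 locus tags matched the RefSeq table of assembly Parsp1, 14815 with the same start. Mates of a read pair are not independent molecules, so depth covers counting error only; 3 reads are worth 0.0946 to 0.129 CPM.

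Genes were tested with limma 3.58.1 (R 4.3.3), its mean-variance trend switched on. Values were log2(scaled CPM + 0.5), scaled CPM being CPM over a TMM factor. TMM factors of the 8 libraries were 1.03 to 1.61 (edgeR 4.0.16). All 23 libraries in 5 groups entered the fit, with no block. The filterByExpr rule kept 13676 genes. Changes are day 6 minus day 0, two-sided, called at a Benjamini-Hochberg adjusted p under 0.05 over all tested genes; this scale understates changes of low genes. Alternatives were edgeR and DESeq2 1.42.0 on the recovered reads, limma-voom, other scalings, pseudocounts, filters and sets of libraries, a test against a 1.5-fold change and libraries left out; recounting runs of neighbours and clusters 3 and 5 under them was added after seeing the data. Figures were drawn with matplotlib 3.10.9.

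Named genes were the 6 largest log2 rises and falls without overlap and with 10 scaled CPM in the higher group, the 4 largest rises and falls in level, the 3 genes with most CPM at each day, and the longest run of neighbours in each direction, 31 genes in all. The comparison, lists and naming rule were chosen with earlier results of these data known. Gene lists by product name and promoter motifs were not run, as no product names or promoters were used here.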

Additional observations from a re-analysis of the deposited data

Results flagged for a closer look

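In CC84DRAFT_1153079, day 6 replicate 1 had 0.397 scaled CPM while the other 4 libraries of day 6 had 2.08 to 2.44, a gap that is large for 5 samples. This was 1 of 38 sets of day 6 values examined. Chance gives a gap past the limit used, 0.71 of the range of the 5 values, in about 1 of 20 sets. Without that library the fall from day 0 was −4.66 on the log2 scale and passed (limma adjusted p = 0.00016).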

How the results depend on the processing

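The number of changed genes, 2890, was 332 in a test against a 1.5-fold change, 1486 without day 6 replicates 1 and 3, and 1179 to 3076 over the fits that left out a single library. With edgeR it was 2610, with DESeq2 3319, with limma-voom 3128, with only the 8 libraries 2275, and with the 14 controls 2520. Of the 2890, 2420 were called in the same direction by edgeR, 2676 by DESeq2 and 2409 by both. With library size alone the rising and falling runs numbered 71 and 11, with DESeq2 32 and 16, with edgeR 11 and 18, with only the 8 libraries 10 and 5, with the 14 controls 12 and 10, and against a 1.5-fold change 0 and 3 in limma.

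Of 682 values of the 31 named genes under alternatives, 605 stayed on their side of the threshold, 70 lost a call, 7 gained one and 0 changed direction; 16 genes lost a call somewhere, 12 of them in the test against a 1.5-fold change. The cause of these losses was not tested. Genes named for rises or falls were chosen without overlap, so leaving out libraries could not turn their direction. The difference in the share of the top 10 genes, 0.343 percentage points, ran from −2.27 to 1.85 over single libraries left out (2.55 without day 6 replicates 1 and 3, −0.712 and −0.515 without day 6 replicates 4 and 5), and that of read-weighted mean length, 43.3 bases, from −3.12 to 112; none of these differences passed.

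Same-numbered libraries of the 2 days deviated from their group means with correlations across genes of 0.331, 0.128 and −0.208. Day 0 replicate 1 correlated best with its own number. Day 0 replicates 2 and 3 correlated best with day 6 replicates 4 (0.152) and 2 (0.236). Deviations from a mean of 3 libraries are tied to each other, so these values cannot decide whether the numbers pair the libraries. With the replicate block 3467 genes passed, with 31 rising and 25 falling runs, and the top 10 difference over the paired replicates 1 to 3 was −2.21. The 3 day 0 libraries, with replicate 1 apart from the others, limit the precision of every value.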
